A study of Mus musculus with 16 samples.

Results

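The 7 genes studied here are mutated in inherited human amyotrophic lateral sclerosis (ALS), other than Sod1, and were followed in limb muscle of presymptomatic SOD1-G93A mice. They are Hnrnpa1, Tardbp, Matr3, Vcp, Sqstm1, Vapb and Pfn1. The choice was by name, with earlier results of these data known. Every probe set whose single gene symbol on the platform is one of these 7 was taken, which gave 14 of the 7729 probe sets in the deposited table, for 7 of its 4929 singly named genes. A probe set is a group of short probes on an Affymetrix array that read the same transcript. Of the 14, 10 passed the brightness filter used for testing (a mean over all arrays above log2 6.75) and 4 did not. The 4 dim ones were 1436079_s_at (Vapb), 1423723_s_at and 1455655_a_at (both Tardbp) and 1457588_at (Vcp), and they are described by their values and by a fit without that filter, with no call. A further 3 probe sets pair Hnrnpa1 with other loci and were left out.

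The study measured total RNA of gastrocnemius, a calf muscle, and triceps, a forelimb muscle, on 16 arrays. The SOD1-G93A group was 4 female C57BL/6 mice aged 7 weeks that carry a human SOD1 transgene with the G93A substitution, a cause of familial ALS, and the NTg group was 4 non-transgenic females of the same strain and age. Both muscles were taken from each mouse, so there were 4 arrays for each genotype and muscle. The labels name neither the promoter of the transgene nor its line or copy number, and only this stage, before symptoms, is covered. Values are log2 signals, and each difference is SOD1-G93A minus NTg between genotypes, and gastrocnemius minus triceps between muscles. The signal of a probe set depends on its probes, so levels were not compared between probe sets. In whole muscle, fewer cells of a type and less RNA per cell cannot be told apart.

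As background, the 7 genes work in different parts of the cell. Hnrnpa1, Tardbp (which encodes TDP-43) and Matr3 encode nuclear proteins that bind RNA and act in splicing and RNA transport, and TDP-43 collects in cytoplasmic inclusions in most human ALS. Vcp encodes a hexameric ATPase that pulls ubiquitinated proteins out of membranes and complexes, and Sqstm1 encodes p62, a receptor that carries ubiquitinated cargo to autophagosomes. Vapb encodes an endoplasmic reticulum (ER) membrane protein that tethers the ER to other organelles by binding lipid-transfer proteins. Pfn1 encodes profilin, which binds actin monomers and feeds filament growth. In people, mutations of HNRNPA1, VCP, SQSTM1 and MATR3 can also cause inherited muscle disease, alone or beside ALS.

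Promoter sequences are shown for 3 of the 7 genes, the RNA-binding protein gene Hnrnpa1, the p62 gene Sqstm1 and the ER tether gene Vapb. Each is the 300-base window around the annotated start in RefSeq (build GRCm38.p6), read 5′ to 3′ on the strand of the gene. Capitals mark the GC box (GGGCGG), which binds factors of the Sp family, the CCAAT box (CCAAT) and the TATA box (TATAAA), each on either strand.
Hnrnpa1, chr15:103240147-103240446, plus strand: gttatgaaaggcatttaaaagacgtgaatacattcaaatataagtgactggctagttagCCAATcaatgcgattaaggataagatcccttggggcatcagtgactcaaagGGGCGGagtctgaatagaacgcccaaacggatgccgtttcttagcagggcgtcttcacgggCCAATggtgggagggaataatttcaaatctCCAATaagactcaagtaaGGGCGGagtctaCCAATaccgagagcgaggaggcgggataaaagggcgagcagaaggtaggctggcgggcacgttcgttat
Sqstm1, chr11:50210771-50211070, minus strand: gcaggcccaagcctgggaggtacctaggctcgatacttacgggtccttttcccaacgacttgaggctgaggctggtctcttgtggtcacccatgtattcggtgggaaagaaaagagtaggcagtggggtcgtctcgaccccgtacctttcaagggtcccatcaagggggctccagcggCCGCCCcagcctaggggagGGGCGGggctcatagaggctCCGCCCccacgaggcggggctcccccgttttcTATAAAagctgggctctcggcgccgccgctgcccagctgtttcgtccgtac
Vapb, chr2:173737321-173737620, plus strand: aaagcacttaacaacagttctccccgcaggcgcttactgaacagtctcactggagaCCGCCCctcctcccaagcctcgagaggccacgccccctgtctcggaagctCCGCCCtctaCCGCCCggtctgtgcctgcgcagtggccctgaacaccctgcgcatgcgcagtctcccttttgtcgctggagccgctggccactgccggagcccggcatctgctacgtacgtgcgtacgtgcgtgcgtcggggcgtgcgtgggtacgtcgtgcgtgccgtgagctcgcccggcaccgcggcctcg
The Hnrnpa1 window holds 4 CCAAT boxes and 2 GC boxes and no TATA box. The Sqstm1 window holds 3 GC boxes and 1 TATA box, and the Vapb window 3 GC boxes alone. Windows of 6 of the 7 genes were scanned (Matr3 was not scanned), and 5 of the 6 hold a GC box, against 35.7% of all 32851 windows of the same length. CCAAT was found in 2 of the 6 (Hnrnpa1 and Vcp), against 37.4% of all windows, and TATAAA in 2 of the 6 (Vcp and Sqstm1), against 13.6%. An AP-1 site (TGAGTCA) was found in Hnrnpa1 alone of the 6, against 5.2% of all windows. The core TGACNNNGC of the antioxidant response element was found in Vcp alone, against 12.4%, and the E-box CACGTG in 0 of the 6, against 7.15%. These last motifs were also read on both strands, may overlap the others and are not in capitals. The CpG content relative to that predicted by base composition was 1.01 in the Vapb window, 0.97 in Hnrnpa1, 0.952 in Tardbp, 0.806 in Vcp, 0.665 in Sqstm1 and 0.6 in Pfn1, against a median of 0.384 over all windows. All 6 windows were richer in CpG than the median window.

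The arrays were alike in overall brightness, with medians of 7.1 to 7.26. All 19 muscle fibre marker genes sought, of fast and slow fibres, were in the table. Their probe sets averaged 11.9 to 12.4 on the SOD1-G93A and 12.16 to 12.36 on the NTg gastrocnemius arrays. In triceps they averaged 9.09 to 11.39 on the SOD1-G93A and 9 to 10.45 on the NTg arrays. The slow fibre gene Tnnc1 averaged 10.78 in SOD1-G93A and 11.15 in NTg gastrocnemius, against 6.63 and 5.94 in triceps. The fast fibre gene Actn3 averaged 13.86 and 13.65 in gastrocnemius, against 13.51 and 13.36 in triceps. The list mean thus mixes fibre type with fibre content. In 3 triceps arrays Ckm, the muscle creatine kinase, stood apart. It was at 12.76 in SOD1-G93A replicate 2 and at 12.84 and 13.02 in NTg replicates 1 and 2, while the other triceps arrays were at 13.84 to 14.51. In every group Ckm was lower in replicates 1 and 2 than in replicates 3 and 4. In gastrocnemius it was at 13.97 to 14.31 in replicates 1 and 2, against 14.44 to 14.71 in replicates 3 and 4. The cause of this split was not tested. Differences of the 7 genes that rest on triceps, and the counts over lists there, are therefore also given without these 3 arrays where that moves them. In triceps this leaves SOD1-G93A replicates 1, 3 and 4 and only NTg replicates 3 and 4. Sod1 (1451124_at) differed by 0.18 in gastrocnemius and 0.28 in triceps, with limma adjusted p of 0.999 and 0.994, and whether its probes read the human transcript is not known, so it does not check the labels.

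The first question was whether any of the 7 genes differs between SOD1-G93A and NTg muscle before symptoms. No call was made. In gastrocnemius 0 of the 10 tested probe sets passed an adjusted p of 0.05 (limma, Benjamini-Hochberg over all 4637 tested probe sets), and 0 of 10 had an unadjusted p under 0.05, against 0% and 2.22% of all tested probe sets. In triceps 0 of 10 passed, against 0% of all, and 2 of 10 (20%) had an unadjusted p under 0.05, against 2.54%. Averaged over both muscles, 0 of 10 passed, against 0%, and 2 of 10 had an unadjusted p under 0.05, against 1.83%. The 4 unadjusted values belong to Vapb and Hnrnpa1 in triceps and to Hnrnpa1 and Tardbp in the average. The average reuses the same triceps arrays. The genes were chosen with the triceps values of Vapb and Hnrnpa1 already known. The counts in triceps and in the average therefore cannot show an excess among these genes. The median difference of the 10 was -0.14 in gastrocnemius, where 4 lay above 0 and 6 below, and -0.06 in triceps, where 3 lay above and 7 below. Over all tested probe sets the medians were -0.0117 and 0.0206. Standard errors of the 10 were 0.13 to 0.37, with a median of 0.21, in either muscle.

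**Figure D1:**
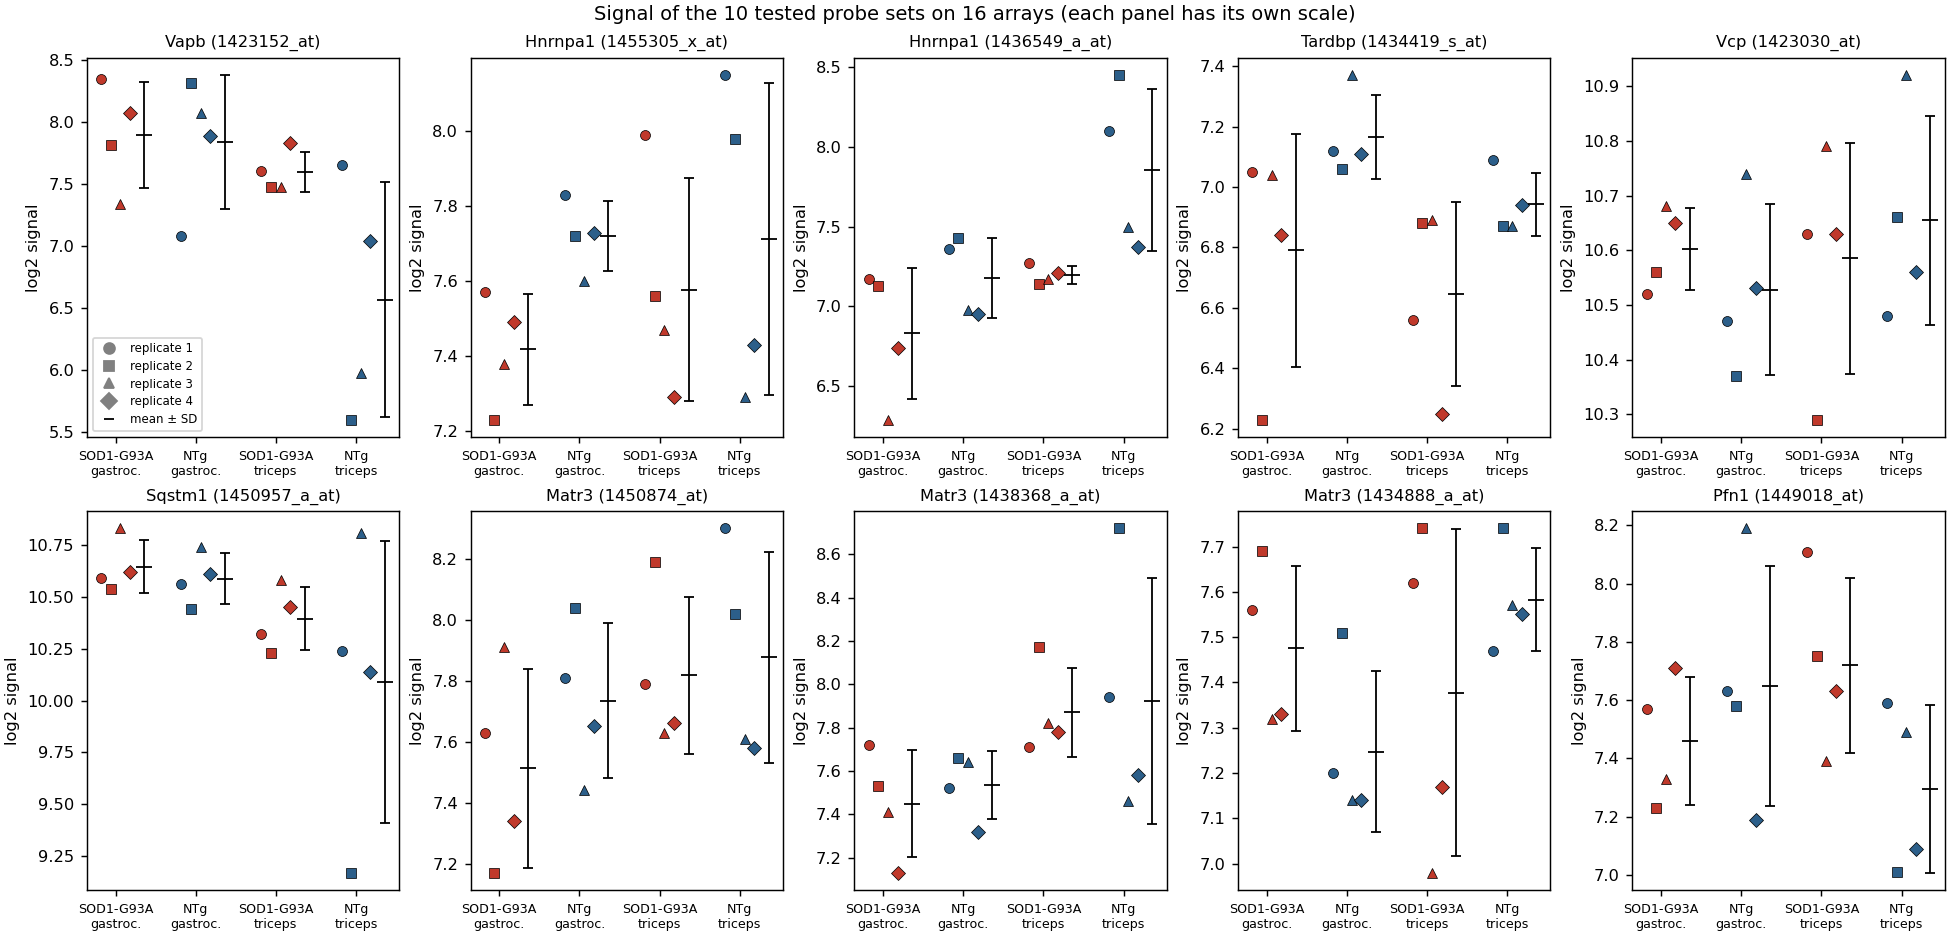
Log2 signal (y axis, a scale of its own in each panel) of the 10 tested probe sets on each of the 16 arrays, by group (x axis). Red marks SOD1-G93A and blue NTg, the symbol shape gives the replicate, and the black bar is the group mean ± SD (n = 4). The SOD1-G93A triceps values of Hnrnpa1 1436549_a_at sit within 7.14 to 7.27, below all 4 NTg triceps values, and the NTg triceps values of Vapb 1423152_at spread over 5.6 to 7.66.

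Among the RNA-binding proteins, the largest genotype difference was that of Hnrnpa1, a shuttling splicing regulator, in triceps. Its probe set 1436549_a_at read 7.27, 7.14, 7.17 and 7.21 in SOD1-G93A triceps, against 8.1, 8.45, 7.5 and 7.37 in NTg triceps. The groups did not overlap, and the NTg arrays were widely spread, with replicates 1 and 2 highest. Groups of 4 that do not overlap in this direction were found for 0.496% of all tested probe sets in triceps. The difference was -0.66 (SE 0.24, 95% interval -1.16 to -0.15), a 0.635-fold level, with an unadjusted p of 0.014 that ranked 20th of 4637 and a limma adjusted p of 0.994. NTg replicates 1 and 2 are also 2 of the 3 arrays with low Ckm. The third, SOD1-G93A replicate 2, read 7.14, the lowest triceps value of this probe set. Without those 3 arrays the difference was -0.22 (SE 0.26), with a limma adjusted p of 0.997.

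In gastrocnemius the same Hnrnpa1 probe set read 7.17, 7.13, 6.29 and 6.74 in SOD1-G93A mice, against 7.36, 7.43, 6.98 and 6.95 in NTg mice. These groups overlapped, and the difference was -0.34 (SE 0.24, interval -0.85 to 0.16). Averaged over both muscles, with the mouse as a random block, the Hnrnpa1 difference was -0.50 (SE 0.18, interval -0.88 to -0.12), with an unadjusted p of 0.0127 and a limma adjusted p of 0.997. It was -0.30 (SE 0.18) without the arrays with low Ckm. The other Hnrnpa1 probe set, 1455305_x_at, carries the suffix for probes that can also match similar sequences, and Hnrnpa1 has close relatives and processed copies in the mouse genome. It read 7.57, 7.23, 7.38 and 7.49 in SOD1-G93A gastrocnemius, against 7.83, 7.72, 7.6 and 7.73 in NTg gastrocnemius. All 4 SOD1-G93A values lay below all 4 NTg values, a pattern found in this direction for 1.32% of tested probe sets, at a difference of -0.30 (SE 0.20, limma adjusted p 0.999). In triceps 1455305_x_at overlapped between the groups, with 7.99, 7.56, 7.47 and 7.29 in SOD1-G93A mice, against 8.15, 7.98, 7.29 and 7.43 in NTg mice. Its triceps difference of -0.13 (SE 0.20) became 0.22 (SE 0.21) without the arrays with low Ckm, so the 2 probe sets of Hnrnpa1 then stood on opposite sides of 0.

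Tardbp, whose protein TDP-43 represses cryptic exons and regulates splicing, had 1 tested probe set, 1434419_s_at, shared by several transcripts. It read 7.05, 6.23, 7.04 and 6.84 in SOD1-G93A gastrocnemius, against 7.12, 7.06, 7.37 and 7.11 in NTg gastrocnemius. The groups did not overlap, as for 1.32% of all tested probe sets in this direction, although the highest SOD1-G93A value, 7.05, nearly met the lowest NTg value, 7.06. The Tardbp difference in gastrocnemius was -0.38 (SE 0.20, interval -0.80 to 0.05), with a limma adjusted p of 0.999. In triceps Tardbp was 6.56, 6.88, 6.89 and 6.25 in SOD1-G93A mice, against 7.09, 6.87, 6.87 and 6.94 in NTg mice, which overlapped. The triceps difference of -0.30 (SE 0.20) was of similar size, and -0.34 (SE 0.27) without the arrays with low Ckm. Averaged over both muscles Tardbp differed by -0.34 (SE 0.16, interval -0.68 to 0), with an unadjusted p of 0.05 after rounding and a limma adjusted p of 0.997.

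The dim Tardbp probe sets differed less evenly. For 1423723_s_at the differences, from a fit without the brightness filter, were -0.43 in gastrocnemius and -0.35 in triceps (SE 0.28 each). For 1455655_a_at they were -0.39 in gastrocnemius and 0 in triceps (SE 0.25 each). In gastrocnemius all 3 Tardbp probe sets lay below 0, each with an interval that includes 0.

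Matr3 encodes matrin 3, a nuclear matrix protein that binds RNA and DNA, and its 3 tested probe sets did not run together. In gastrocnemius 1434888_a_at read 7.56, 7.69, 7.32 and 7.33 in SOD1-G93A mice, against 7.2, 7.51, 7.14 and 7.14 in NTg mice, a difference of 0.23 (SE 0.18). In triceps it read 7.62, 7.74, 6.98 and 7.17 in SOD1-G93A mice, against 7.47, 7.74, 7.57 and 7.55 in NTg mice, a difference of -0.20 (SE 0.18). The groups overlapped in both muscles. Of the other Matr3 probe sets, 1438368_a_at averaged 7.45 ± 0.25 in SOD1-G93A and 7.53 ± 0.16 in NTg gastrocnemius, while in triceps it was 7.87 ± 0.21 in SOD1-G93A and 7.93 ± 0.57 in NTg mice (SD, n = 4 each). Likewise 1450874_at averaged 7.51 ± 0.33 in SOD1-G93A and 7.74 ± 0.25 in NTg gastrocnemius, while in triceps it was 7.82 ± 0.26 in SOD1-G93A and 7.88 ± 0.34 in NTg mice. The groups overlapped for both. Their triceps differences of -0.05 and -0.06 became 0.25 and 0.10 without the arrays with low Ckm, so both changed sign. That of 1434888_a_at stayed below 0, at -0.30 (SE 0.22). The Matr3 probe sets thus shared no stable direction in triceps.

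**Figure D2:**
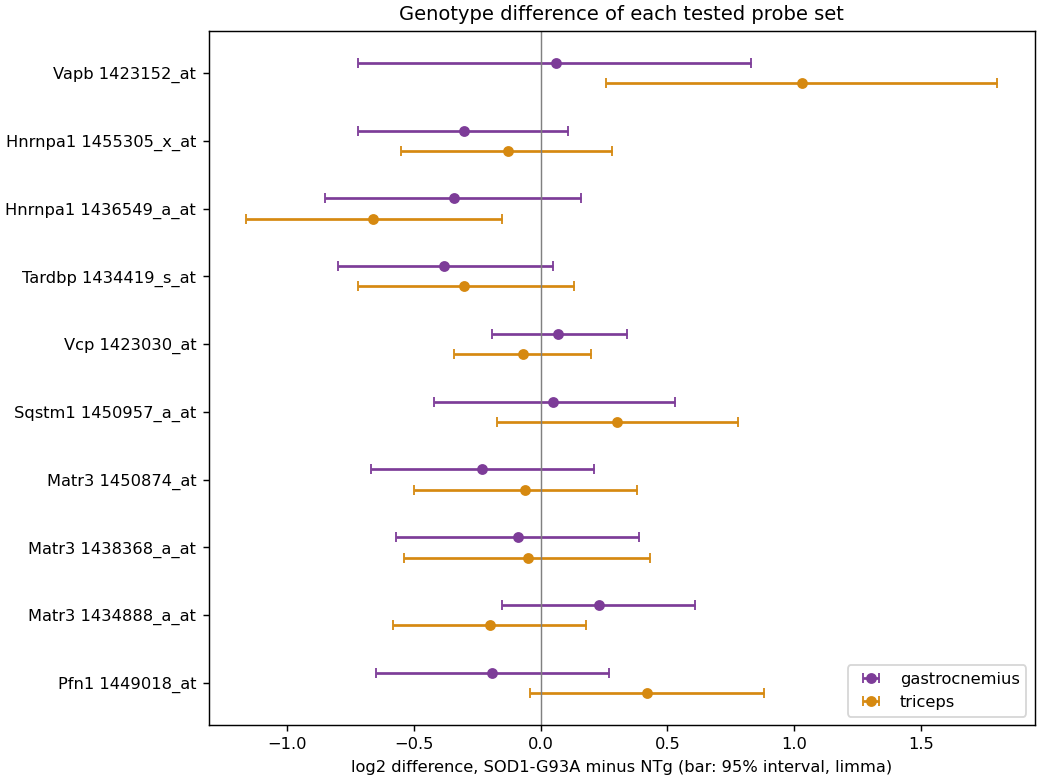
Log2 difference, SOD1-G93A minus NTg (x axis), of each tested probe set (rows) in gastrocnemius (purple) and triceps (orange), with the 95% interval from limma (n = 4 arrays a group). The triceps interval lies above 0 for Vapb 1423152_at (0.26 to 1.80) and below 0 for Hnrnpa1 1436549_a_at (-1.16 to -0.15), and all other intervals include 0. None passed the adjusted threshold.

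Of the protein clearance genes, Vcp had the smallest standard errors of all 10 probe sets. Vcp, the segregase ATPase, read 10.52, 10.56, 10.68 and 10.65 at 1423030_at in SOD1-G93A gastrocnemius, against 10.47, 10.37, 10.74 and 10.53 in NTg gastrocnemius. In triceps Vcp read 10.63, 10.29, 10.79 and 10.63 in SOD1-G93A mice, against 10.48, 10.66, 10.92 and 10.56 in NTg mice. The groups overlapped in both muscles, at differences of 0.07 (SE 0.13, interval -0.19 to 0.34) and -0.07 (SE 0.13, interval -0.34 to 0.20). Averaged over both muscles the Vcp difference was 0 with an interval of -0.20 to 0.20, which leaves room for levels of 0.871-fold to 1.15-fold. The dim Vcp probe set 1457588_at ranged from 2.41 to 5.88 over the 16 arrays and carries no usable difference, with standard errors of 0.72 in each muscle.

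Sqstm1, the p62 gene, had 1 probe set, 1450957_a_at. In gastrocnemius it read 10.59, 10.54, 10.83 and 10.62 in SOD1-G93A mice, against 10.56, 10.44, 10.74 and 10.61 in NTg mice, a difference of 0.05 (SE 0.22). In triceps Sqstm1 read 10.32, 10.23, 10.58 and 10.45 in SOD1-G93A mice, against 10.24, 9.17, 10.81 and 10.14 in NTg mice. NTg replicate 2 was far below the others and replicate 3 above all SOD1-G93A values. The difference in triceps of 0.30 (SE 0.22, limma adjusted p 0.994) was 0 after rounding without NTg replicate 2 and -0.03 (SE 0.16) without the 3 arrays with low Ckm, to which it belongs.

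Vapb, the ER tether, had the largest triceps difference of the 10. Its tested probe set 1423152_at read 7.61, 7.48, 7.48 and 7.83 in SOD1-G93A triceps, against 7.66, 5.6, 5.98 and 7.04 in NTg triceps. The SOD1-G93A arrays lay close together, and the NTg arrays ranged from replicates 2 and 3, far below every SOD1-G93A array, to replicate 1, which was above 3 of them. The groups therefore overlapped. The difference was 1.03 (SE 0.37, interval 0.26 to 1.80), a 2.04-fold level (interval 1.2 to 3.49), with an unadjusted p of 0.0119 that ranked 14th of 4637 and a limma adjusted p of 0.994. Unlike that of Hnrnpa1, the Vapb difference was as large without the arrays with low Ckm, at 1.13 (SE 0.36, limma adjusted p 0.997). The NTg triceps arrays then left read 5.98 and 7.04, and the one at 7.66, which overlapped the SOD1-G93A arrays, is among those left out. It was 0.71 without NTg replicate 2 and 1.39 without NTg replicate 1.

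In gastrocnemius Vapb read 8.35, 7.82, 7.34 and 8.08 in SOD1-G93A mice, against 7.08, 8.32, 8.08 and 7.89 in NTg mice, overlapping fully, and the difference was 0.06 (SE 0.37, interval -0.72 to 0.83). The dim Vapb probe set 1436079_s_at did not show the triceps pattern. It read 6.93, 6.67, 6.82 and 6.37 in SOD1-G93A triceps, against 6.7, 6.75, 7.02 and 6.82 in NTg triceps, a difference of -0.12 (SE 0.19, interval -0.52 to 0.28, from the fit without the filter). The intervals of the 2 Vapb probe sets in triceps, 0.26 to 1.80 and -0.52 to 0.28, barely overlap. Which transcripts each of them reads was not analysed here.

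Pfn1, profilin, read 8.11, 7.75, 7.39 and 7.63 at 1449018_at in SOD1-G93A triceps, against 7.59, 7.01, 7.49 and 7.09 in NTg triceps. The groups overlapped through SOD1-G93A replicate 3, and the difference was 0.42 (SE 0.22, interval -0.04 to 0.88, limma adjusted p 0.994). It was also 0.42 (SE 0.28) without the arrays with low Ckm. In gastrocnemius Pfn1 read 7.57, 7.23, 7.33 and 7.71 in SOD1-G93A mice, against 7.63, 7.58, 8.19 and 7.19 in NTg mice, a difference of -0.19 (SE 0.22) with overlapping groups.

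Marker genes lay mostly on 1 side in triceps, beside these differences, when all arrays were used. Of the muscle fibre probe sets 24 of 25 tested lay above 0 in the SOD1-G93A minus NTg difference in triceps (median 0.26). So did 7 of 7 fibroblast probe sets (median 0.37), 5 of 5 adipocyte (median 0.16), 4 of 4 macrophage (median 0.14) and 3 of 4 Schwann cell probe sets (median 0.32). Over all tested probe sets 54.4% lay above 0 (median 0.0206). Several probe sets read the same gene, as these were of 5 fibroblast, 3 adipocyte, 3 macrophage and 2 Schwann cell genes. Without the arrays with low Ckm the counts above 0 were 14 of 25 muscle fibre (median 0.12), 5 of 7 fibroblast (median 0.15), 5 of 5 adipocyte (median 0.20), 0 of 4 macrophage (median -0.20) and 3 of 4 Schwann cell probe sets (median 0.21). None of these probe sets was called, and their part in the results was not tested. In gastrocnemius 13 of the 25 muscle fibre probe sets lay above 0 (median 0.04), against 47.1% of all tested probe sets. For the other types these were 3 of 7 fibroblast (median -0.01), 3 of 5 adipocyte (median 0.12), 2 of 4 macrophage (median 0.01) and 0 of 4 Schwann cell probe sets (median -0.31). Array means over the Schwann cell list ran from 6.21 to 8.38 in SOD1-G93A and from 7.79 to 8.17 in NTg gastrocnemius.

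**Figure D3:**
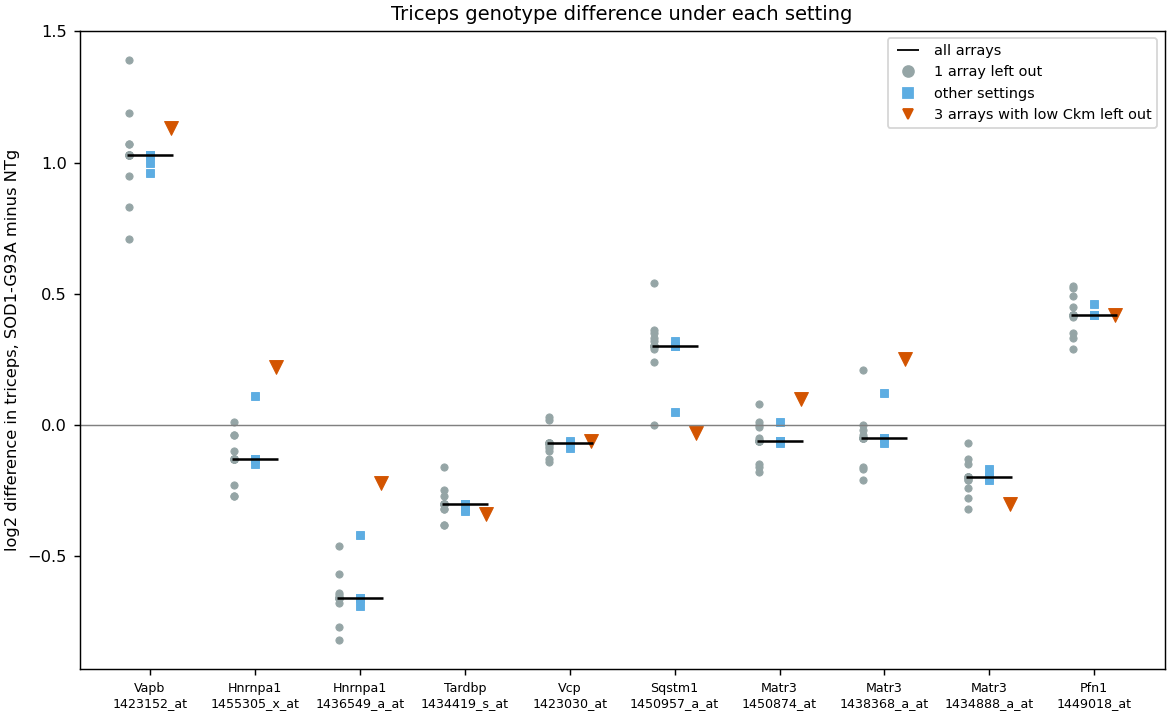
Log2 difference in triceps, SOD1-G93A minus NTg (y axis), of each tested probe set (x axis) with all arrays (black line), with 1 array left out (grey), under other processing settings (blue) and without the 3 triceps arrays with low Ckm (orange). Vapb stays between 0.71 and 1.39, while Hnrnpa1 1436549_a_at moves to -0.22 and Sqstm1 to -0.03 without the 3 arrays.

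The genotype difference was also compared between the muscles directly, as the gastrocnemius difference minus the triceps difference. This fit held no block for the mouse, although both muscles came from each mouse. Of the 10 probe sets 0 passed the adjusted threshold and 0 had an unadjusted p under 0.05, against 0% and 1.85% of all tested probe sets. The widest gaps were those of Vapb 1423152_at at -0.97 (SE 0.52, interval -2.07 to 0.12), Pfn1 at -0.61 (SE 0.31, interval -1.26 to 0.04) and Matr3 1434888_a_at at 0.43 (SE 0.26, interval -0.11 to 0.97). The limma adjusted p was 0.999 for each. For Vapb the gap was -1.07 (SE 0.46) without the arrays with low Ckm, at a limma unadjusted p of 0.0318 and adjusted p of 0.907. An effect of Vapb limited to triceps was thus not shown. For Hnrnpa1 1436549_a_at the gap was 0.31 (SE 0.34), and for Tardbp -0.08 (SE 0.29).

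Partners and relatives of the 7 genes, taken from lists by role, gave 0 calls in every genotype comparison. A list of other ALS-linked genes had 9 genes with 18 tested probe sets, of which 9 lay above 0 and 9 below in triceps (median -0.03) and 5 above and 13 below in gastrocnemius (median -0.08). Among the hnRNPs and nuclear neighbours of matrin 3, 17 genes with 33 tested probe sets split 16 above and 17 below in triceps (median -0.03) and 11 above and 22 below in gastrocnemius (median -0.07). Hnrnpf, an hnRNP that binds G-rich RNA, averaged 7.51 ± 0.5 at 1437099_x_at in SOD1-G93A triceps and 8.21 ± 0.61 in NTg triceps (SD, n = 4 each). That difference of -0.70 (SE 0.31, limma adjusted p 0.994) stands near the one of Hnrnpa1. The suffix of this probe set is again that for probes that can also match similar sequences. No other tested Hnrnpf probe set had a limma unadjusted p under 0.05 in triceps. Without the arrays with low Ckm the difference at 1437099_x_at was -0.44. Leaving out those arrays shifted both lists in triceps, to 12 of 18 above 0 for the other ALS-linked genes (median 0.12) and 27 of 33 for the hnRNPs (median 0.14), with 0 called and a median of 0.02 over all tested probe sets. The gene Hnrnpa2b1 is on both lists, so their counts share its probe sets.

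The Vapb relative Vapa, which binds the same kind of partner, averaged 9.02 ± 0.3 at 1416465_a_at in SOD1-G93A triceps and 9.39 ± 0.48 in NTg triceps, a difference of -0.37 (SE 0.21, limma adjusted p 0.994). It was -0.18 (SE 0.19) without the arrays with low Ckm and -0.16 (SE 0.18) without NTg replicate 2 alone. The other Vapa probe set, 1416466_at, averaged 9.67 ± 0.28 in SOD1-G93A triceps and 9.7 ± 0.27 in NTg triceps, a difference of -0.03 (SE 0.16). Of the 11 tested probe sets of Vapb partners and relatives at ER contact sites, 3 lay above 0 and 8 below in triceps (median -0.05). The 23 tested probe sets of Vcp cofactors and ER-associated degradation split 14 above and 9 below in triceps (median 0.02). Those of autophagy receptors, the LC3 family and the Keap1-Nrf2 axis, the setting of p62, split 7 and 5 (median 0.02). Without the arrays with low Ckm these lists split 3 and 8 (median -0.08), 13 and 10 (median 0.04) and 4 and 8 (median -0.12).

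Among the profilin partners and actin assembly genes, 24 of 36 tested probe sets lay above 0 in triceps (median 0.03), and 19 of 36 without the arrays with low Ckm (median 0.01). Twf2, twinfilin, which binds actin monomers as profilin does, had the smallest unadjusted p of any gene on these lists in the genotype comparisons. Its probe set 1431292_a_at averaged 7.84 ± 0.19 in SOD1-G93A and 8.39 ± 0.23 in NTg gastrocnemius, while in triceps it was 7.38 ± 0.29 in SOD1-G93A and 7.89 ± 0.18 in NTg mice (SD, n = 4 each). The Twf2 difference averaged over both muscles was -0.53 (SE 0.13), at an unadjusted p of 0.000763 and a limma adjusted p of 0.997. Its other probe set, 1439440_x_at, differed by -0.32 (SE 0.16). Actb, cytoplasmic beta-actin, averaged 11.5 ± 0.11 at 1436722_a_at in SOD1-G93A triceps and 10.64 ± 1.08 in NTg triceps, and its difference of 0.86 (SE 0.35) was 0.43 without the arrays with low Ckm. In the genotype comparisons neither Twf2 nor Actb passed under any alternative run.

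The second factor of the design, gastrocnemius against triceps, separated more of the array. Of all tested probe sets 171, or 3.69%, passed, and of the 10 of these genes 0 did. An unadjusted p under 0.05 was found for 4 of 10 (40%), against 22.3% of all tested probe sets. They were Vapb 1423152_at, Hnrnpa1 1436549_a_at, Sqstm1 and Matr3 1438368_a_at. For Vapb and Hnrnpa1 this count reuses triceps values that were known when the genes were chosen. Because both muscles came from each mouse, each value is also given with the mouse as a random block where that changes the call, and under it 331 probe sets, or 7.14%, passed.

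Hnrnpa1 passed with the mouse as a block. Within the SOD1-G93A mice, 1436549_a_at differed between gastrocnemius and triceps by -0.11, -0.01, -0.88 and -0.47, and within the NTg mice by -0.74, -1.02, -0.52 and -0.43. It was lower in gastrocnemius in 8 of 8 mice, though by next to nothing in SOD1-G93A replicate 2. The muscle difference of Hnrnpa1 was -0.52 (SE 0.17, interval -0.88 to -0.16), a 0.696-fold level, at a limma adjusted p of 0.0969 without the block and 0.0439 with it. The call with the block ended without the 3 arrays with low Ckm, where the difference was -0.36 at a limma adjusted p of 0.194. The other Hnrnpa1 probe set, 1455305_x_at, was lower in gastrocnemius in 5 of 8 mice, at -0.08 (SE 0.14).

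Vapb 1423152_at differed by 0.75, 0.34, -0.14 and 0.25 within the SOD1-G93A mice and by -0.58, 2.72, 2.09 and 0.85 within the NTg mice. It was higher in gastrocnemius in 6 of 8 mice, and the 2 widest gaps were in NTg replicates 2 and 3, whose triceps arrays read lowest. The Vapb muscle difference was 0.78 (SE 0.26, interval 0.24 to 1.33), a 1.72-fold level, at a limma adjusted p of 0.101 and 0.0605 with the block. Leaving out the arrays with low Ckm did not shrink this value, which was then 0.79 (SE 0.23, limma adjusted p 0.0856) without the block. Without them and with the block, a combination chosen after the data were seen, the difference was 0.82 (SE 0.20) and passed, at a limma adjusted p of 0.0308, and without NTg triceps replicate 1 alone it was 0.97 at 0.0277. The dim Vapb probe set 1436079_s_at was lower in gastrocnemius in 6 of 8 mice, at -0.19 (SE 0.14), so the 2 probe sets of Vapb pointed in opposite directions here too.

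Sqstm1 differed by 0.27, 0.31, 0.25 and 0.17 within the SOD1-G93A mice, a narrow range, and by 0.32, 1.27, -0.07 and 0.47 within the NTg mice. It was higher in gastrocnemius in 7 of 8 mice, at 0.37 (SE 0.16, interval 0.04 to 0.71, limma adjusted p 0.182). Without the arrays with low Ckm the Sqstm1 difference was 0.15 (SE 0.10). It passed without NTg triceps replicate 3, at 0.49 and a limma adjusted p of 0.0391. Matr3 1438368_a_at was lower in gastrocnemius in 6 of 8 mice, at -0.41 (SE 0.16, limma adjusted p 0.153), and at -0.15 (SE 0.13) without the arrays with low Ckm. The other Matr3 probe sets were at -0.23 (SE 0.15) and -0.12 (SE 0.13).

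For the remaining genes no tested probe set had an interval that excludes 0. Tardbp 1434419_s_at was higher in gastrocnemius in 7 of 8 mice, by 0.18 on average (SE 0.14, interval -0.12 to 0.48), while its dim probe set 1423723_s_at was lower in 7 of 8, at -0.43 (SE 0.20, interval -0.85 to -0.01, from the fit without the filter). Vcp differed by -0.05 (SE 0.09, interval -0.24 to 0.13) and Pfn1 by 0.04 (SE 0.15, interval -0.28 to 0.37). Within mice Pfn1 differed by -0.55, -0.53, -0.05 and 0.08 in the SOD1-G93A mice and by 0.04, 0.57, 0.69 and 0.10 in the NTg mice, so that its sign was mostly negative in SOD1-G93A mice and positive in all 4 NTg mice. That is the same contrast as the difference between the genotype effects above, which did not pass.

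**Figure D4:**
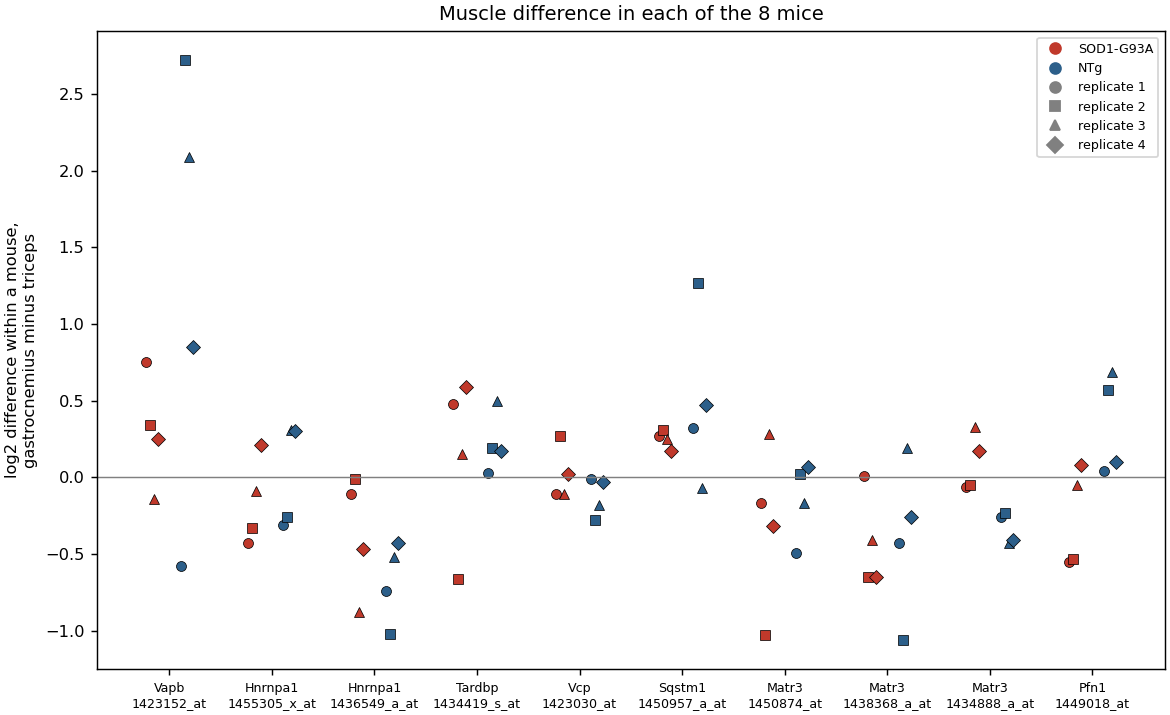
Log2 difference within a mouse, gastrocnemius minus triceps (y axis), of each tested probe set (x axis) in 4 SOD1-G93A mice (red) and 4 NTg mice (blue), with the symbol shape giving the replicate. Hnrnpa1 1436549_a_at lies below 0 in 8 of 8 mice and Sqstm1 above 0 in 7 of 8, and Vapb 1423152_at spans -0.58 to 2.72 in the NTg mice.

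Signals of cell type markers also differed between the muscles, beside these values. Of 25 tested muscle fibre probe sets 12 were called higher in gastrocnemius and 0 lower, against 2.11% and 1.57% of all tested probe sets. These 12 belong to the slow fibre genes Myh7, Tnnt1, Myl2, Myl3, Tnnc1, Tnni1 and Atp2a2, and to Myh2. No probe set of Ckm, Acta1 or the fast fibre gene Actn3 was called. All 4 tested Schwann cell probe sets, of Mbp and Pmp22, were called higher in gastrocnemius (median 2.01), with array means over the list of 6.21 to 8.38 on the SOD1-G93A and 7.79 to 8.17 on the NTg gastrocnemius arrays, against 5.78 to 6.54 on the SOD1-G93A and 5.88 to 6.25 on the NTg triceps arrays. Of 7 tested fibroblast probe sets 2 were called higher, as were 2 of 5 adipocyte probe sets (both of Lpl, which muscle fibres also express) and 0 of 4 macrophage probe sets. No endothelial or erythroid marker passed the brightness filter. Their part in the muscle differences was not tested.

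Between the muscles, called partner probe sets numbered 2 of 33 on the hnRNP list, 1 of 23 for Vcp cofactors, 1 of 12 for autophagy, 1 of 11 for Vapb partners and 2 of 36 for actin assembly, against the 3.69% called over all tested probe sets. Hnrnpa2b1, the closest listed relative of Hnrnpa1 and itself mutated in human multisystem proteinopathy, fell in gastrocnemius relative to triceps at 2 of its 4 tested probe sets. At 1433829_a_at it averaged 8.07 ± 0.13 in SOD1-G93A and 8.27 ± 0.18 in NTg gastrocnemius, against 8.67 ± 0.27 in SOD1-G93A and 8.84 ± 0.55 in NTg triceps (SD, n = 4 each). That difference was -0.58 (SE 0.15, limma adjusted p 0.0397), and at 1434047_x_at it was -0.65 (SE 0.17, limma adjusted p 0.0407). The other Hnrnpa2b1 probe sets, 1420365_a_at and 1433830_at, were at -0.37 and -0.36 and did not pass. In the hnRNP list 27 of 33 tested probe sets lay below 0 (median -0.18), against a median of -0.00418 over all tested probe sets, and likewise 27 of 33 without the arrays with low Ckm (median -0.09). Without the arrays with low Ckm the Hnrnpa2b1 differences were -0.31 and -0.37, at limma adjusted p of 0.205 and 0.181, and both calls were lost in 14 of 26 alternatives.

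Single probe sets of 3 further partners were lower in gastrocnemius. Ubxn2a, a Vcp cofactor of the UBX family, differed by -0.33 (SE 0.09, limma adjusted p 0.0401) at 1425020_at and by -0.70 (SE 0.24, limma adjusted p 0.106) at 1425019_at. Map1lc3b, the LC3 protein to which p62 binds on autophagosomes, differed by -0.42 (SE 0.11, limma adjusted p 0.0408) at 1415928_a_at but by -0.07 and 0.05 at its other tested probe sets, 1415929_at and 1415930_a_at. Osbpl9, a lipid-transfer protein that binds Vapb, differed by -0.34 (SE 0.09, limma adjusted p 0.0493) at 1423383_a_at and by -0.13 (SE 0.14) at 1450964_a_at. All 3 calls ended without the arrays with low Ckm, at limma adjusted p of 0.185, 0.0893 and 0.225. Of the tested probe sets of Vcp cofactors 18 of 23 lay below 0 (median -0.19), and 15 of 23 without those arrays (median -0.05).

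Called actin assembly probe sets were higher in gastrocnemius. Cfl2, muscle cofilin, which severs actin filaments, averaged 10.8 ± 0.16 at 1418067_at in SOD1-G93A and 10.92 ± 0.02 in NTg gastrocnemius, against 10.41 ± 0.23 in SOD1-G93A and 10.2 ± 0.47 in NTg triceps (SD, n = 4 each). It rose in gastrocnemius relative to triceps by 0.55 (SE 0.13, limma adjusted p 0.0203), and this call held in 26 of 26 alternatives, at 0.39 and a limma adjusted p of 0.00641 without the arrays with low Ckm. The other Cfl2 probe set, 1418066_at, differed by only 0.01 (SE 0.10). Twf2 was higher in gastrocnemius by 0.48 (SE 0.12, limma adjusted p 0.0372), a call lost in 12 of 26 alternatives. Without the arrays with low Ckm the Twf2 difference was of like size, 0.45, at a limma adjusted p of 0.131. Gsn, gelsolin, which severs and caps actin filaments, lay the other way, at -0.50 (SE 0.17, limma adjusted p 0.111) for 1456312_x_at and -0.41 (SE 0.14, limma adjusted p 0.117) for 1437171_x_at. Of the 36 tested probe sets of this list 25 lay above 0 (median 0.14), and at an unadjusted p under 0.05 there were 6 higher and 4 lower.

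Across the 16 arrays, once the 4 group means had been removed, each gene was set beside all other singly named tested probe sets to find those that vary most like it. The brightest probe set of each gene was used, and the correlations describe 16 arrays that share array-wide shifts such as the low Ckm of 3 of them. Sqstm1 went with Rac1 (r = 0.97), Tmem38a (r = 0.96) and Immt (r = 0.96). Vcp went with Ube3b (r = 0.92), Mlec (r = 0.90) and Prnp (r = 0.90). Hnrnpa1 1455305_x_at went with Spns2 (r = 0.91), Acot9 (r = 0.90) and Pnpla8 (r = 0.87), and Matr3 1450874_at with Rps7 (r = 0.91), Dek (r = 0.88) and Fxr1 (r = 0.87). Vapb went with Tpp2 (r = 0.84), Sparcl1 and Hspa9 (r = 0.79 each), Tardbp with Xiap (r = 0.85), Psmd7 (r = 0.81) and Sh3glb1 (r = 0.77), and Pfn1 with Gna11 (r = 0.90), Pdk2 (r = 0.80) and Smim10l1 (r = 0.74).

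Among the 7 genes themselves the same measure varied by probe set. Over 16 arrays Sqstm1 and Matr3 1438368_a_at had r = -0.80, and Sqstm1 and Hnrnpa1 1436549_a_at r = -0.67. Sqstm1 had r = -0.29 with Matr3 1450874_at and r = 0.14 with Tardbp 1434419_s_at, while Hnrnpa1 1436549_a_at and Matr3 1438368_a_at had r = 0.71. Within Hnrnpa1 the 2 tested probe sets had r = 0.55, and within Matr3 1450874_at and 1438368_a_at had r = 0.47. The differences of Sqstm1, Hnrnpa1 1436549_a_at and Matr3 1438368_a_at in triceps were among those that moved most without the arrays with low Ckm.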

How the data were processed

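Gene expression was measured in gastrocnemius and triceps of 4 SOD1-G93A and 4 NTg mice on 16 Affymetrix arrays. For each array the authors deposited a log2 value per probe set. The submitters' processing notes name MAS5 alone and no version of it. Neither the log base nor any other step is stated in the sources used here, and base 2 was read from the range of -0.773 to 14.81. The values were used as deposited, and their precision is limited by the number of arrays. Symbols were taken from the annotation of the platform (7053 probe sets with 1 symbol, 330 with several, 346 with none), and the Entrez identifiers of all 7 genes were found in RefSeq.

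Probe sets with a mean above the 40th percentile (log2 6.75), 4637 in all, were tested with limma 3.58.1 in R 4.3.3 as 4 group means (lmFit, eBayes with an intensity trend). Calls were made at a Benjamini-Hochberg adjusted p under 0.05 over all tested probe sets. In the comparison averaged over both muscles the mouse was a random block (consensus correlation 0.18). The other main fits held no block. The fit without the block was also run on simulated data with independent noise on each array. Those data held neither a link between muscles of a mouse nor array-wide shifts, so they do not test the paired design. The design text gives both muscles for the same mice. The replicate number was read as the mouse. Same-numbered muscles of a genotype correlated at 0.14 to 0.39 in their deviations from the group means. For 7 of 8 gastrocnemius arrays the best match was the same-numbered triceps array of the genotype. Same-numbered triceps arrays of different genotypes reached 0.37, so the size of the correlation alone does not settle this reading. The alternatives were other filters, quantile normalization, array weights and no intensity trend. Blocks were fitted for the mouse, the replicate number or the replicate set. Each array was also left out, as were the 3 arrays with low Ckm together. The mouse block together with leaving out those arrays was added after the data were seen, as were the counts over lists and the Vapa values without them.

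The genes and lists were chosen with earlier results of these data known, in which the triceps values of Vapb and Hnrnpa1 already stood. The genes named are all probe sets of the 7, the 2 of smallest unadjusted p per direction and list (in part), Sod1 as a check, and the 3 most correlated genes per member. Gsn, Vapa, Twf2, Actb, Hnrnpf, Cfl2, Hnrnpa2b1, Ubxn2a, Map1lc3b and Osbpl9 came from that rule, while their further probe sets, Ckm and the marker genes given as examples were picked after their values were seen.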

Additional observations from a re-analysis of the deposited data

Results flagged for a closer look

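1 array stood apart within its group among 56 checks (14 probe sets in 4 groups of 4). The dim Vcp probe set 1457588_at read 2.41 in SOD1-G93A gastrocnemius replicate 3, and the nearest of the other 3 arrays was at 4.8, a gap of 0.837 of the whole range of the group, beyond the 95% critical value of Dixon's test. Chance alone marks about 1 in 20 groups. The probe set lies below the brightness filter and was fitted only without that filter, and Vcp 1423030_at on the same array read 10.68, close to the others.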

How the results depend on the processing

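Over the 50 results of the 10 tested probe sets, 1230 alternative values were computed: 1163 kept their direction and their side of the threshold, 60 changed sign, 7 newly passed and 0 lost a call. In the genotype comparisons 0 probe sets were called under every alternative, the replicate number as a block included (count 0). Same-numbered arrays of the genotypes, which are different mice, correlated at 0.00065 to 0.37, and numbers were not taken to pair the genotypes.

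Between the muscles the count of all called probe sets was 171 with all arrays and 103 without the 3 triceps arrays with low Ckm. It was 331 and 318 with the mouse as a random or a fixed block. The count was 436 with the replicate set, replicates 1 and 2 against replicates 3 and 4, as a block. With 1 array left out it was 99 to 272: 111 and 99 without SOD1-G93A triceps replicates 1 and 2, 100 and 113 without SOD1-G93A gastrocnemius replicates 3 and 4, 107 and 105 without NTg gastrocnemius replicates 1 and 2, and 272 and 257 without NTg triceps replicates 3 and 4. The count of called probe sets of the 7 genes was 0, and 1 under each of the 3 blocks and with the random block without the low Ckm arrays. It was 0 to 1 with 1 array left out, the 1 being Vapb without NTg triceps replicate 1, Sqstm1 without replicate 3 and Hnrnpa1 without replicate 4.

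Signs turned as follows. In triceps Hnrnpa1 1455305_x_at was at 0.11 with array weights and 0.22 without the low Ckm arrays, Matr3 1438368_a_at at 0.12 and 0.25, Matr3 1450874_at at 0.01 and 0.10, and Sqstm1 at -0.03 without those arrays. In the average Matr3 1434888_a_at was at -0.04 and Matr3 1438368_a_at at 0.08 without them, Matr3 1438368_a_at also at 0.01 with array weights, and Vcp at -0.03 with quantile normalization. In the difference between muscles' genotype effects Hnrnpa1 1436549_a_at was at -0.13 and Sqstm1 at 0.08 without those arrays, Sqstm1 at 0.02 with array weights and Matr3 1438368_a_at at 0.01 with quantile normalization. Between the muscles Hnrnpa1 1455305_x_at was at 0.10 without them, with or without the mouse block, and Pfn1 at -0.01 with array weights.

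With 1 array left out the signs of these results also turned, within the ranges given. In gastrocnemius they were Matr3 1438368_a_at (-0.18 to 0.02), Sqstm1 (-0.01 to 0.10) and Vapb (-0.20 to 0.24). In triceps they were Hnrnpa1 1455305_x_at (-0.27 to 0.01), Matr3 1438368_a_at (-0.21 to 0.21), Matr3 1450874_at (-0.18 to 0.08), Sqstm1 (0 to 0.54) and Vcp (-0.14 to 0.03). In the average they were Matr3 1434888_a_at (-0.04 to 0.07), Matr3 1438368_a_at (-0.15 to 0.06) and Vcp (-0.03 to 0.05). In the difference of effects they were Matr3 1438368_a_at (-0.30 to 0.12), Sqstm1 (-0.49 to 0.06) and Tardbp (-0.21 to 0.11), and between the muscles Pfn1 (-0.05 to 0.12). The cause was not tested. The number of arrays limits what differences could be found: standard errors of the 10 probe sets were 0.13 to 0.37 in each muscle.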
